A study of Homo sapiens with 40 samples.

Results

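Distal H3K27ac peaks of A549 cells that had no counterpart after SETDB1 disruption were examined. A549 is an established human lung adenocarcinoma line. Control cells were compared with A549 cells in which SETDB1, a histone methyltransferase that places H3K9me3, was disrupted with CRISPR/Cas9 from a PX458 plasmid (KO). Whether the KO cells are 1 clone or a pool is not given in the sources used here. A control H3K27ac peak was taken as distal when no H3K4me3 peak of either genotype overlapped it, and as lost when no KO H3K27ac peak overlapped it, each by at least 1 bp. The peaks were thus chosen by the H3K27ac and H3K4me3 peak calls themselves. This left 11459 lost distal peaks of 55740 control H3K27ac peaks (20.6%).

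H3K27ac is placed by the acetyltransferases EP300 and CREBBP on nucleosomes of active promoters and enhancers. Promoters also carry H3K4me3, so H3K27ac without H3K4me3 is commonly read as a mark of active enhancers, which loop to promoters mostly inside the same topologically associating domain (TAD). H3K9me3 and the Polycomb mark H3K27me3 are repressive, and chromatin divides into an active A and an inactive B compartment in Hi-C maps.

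The ChIP-seq libraries numbered 2 per mark and genotype, the Hi-C libraries 2 per genotype and the RNA-seq libraries 3 per genotype, of 40 samples in all. Each mark had 1 list of peaks per genotype, with positions but no score or depth, so a lost peak is one that was not called in KO and no replicate error can be given for it. Fewer cells with the mark and less of it per cell cannot be told apart in these bulk samples. Intervals in brackets are 95% Wilson intervals. They cover counting error only and treat neighbouring peaks as independent. Positions are on hg19, and no gene annotation of that build was used here, so peaks are described by position and not by gene. RNA-seq libraries held 18065062 to 48364919 counts. SETDB1 RNA stood at 37.5, 39.6 and 38.8 CPM (counts scaled to library size and library composition) in control and at 23.4, 21.2 and 21.1 CPM in KO libraries. The groups did not overlap, and KO was lower by a log2 difference of -0.82 (SE 0.060; edgeR adjusted p = 1.7e-12). The epithelial keratins KRT8 and KRT18 were abundant in every library, whereas the lung lineage factor NKX2-1 had 0 counts in the control libraries and 1 to 2 in KO. Of the 3 leukocyte genes listed, CD3E had 0 counts in all 6 libraries and PTPRC at most 1 count in each. CD14 was detected in every library, at a mean of 5.68 CPM in control and 4.76 CPM in KO.

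Distal peaks were lost far more often than promoter-type peaks. Of 19288 distal control peaks, 59.4% (58.7 to 60.1) were lost, against 9.70% (9.40 to 10.0) of the 36452 control H3K27ac peaks that touched H3K4me3. Distal peaks made up 76.4% of all lost control H3K27ac peaks. In the other direction, 7884 distal KO peaks had no control counterpart, and distal peaks were 34.6% of the control list and 26.5% of the KO list. These values describe the rule that chose the peaks and were not tested. Promoter-type peaks were also wider, with a median of 1691 bp against 858 bp for lost distal peaks and 1188 bp for distal peaks kept in KO. Their loss was not compared with that of distal peaks of like width.

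Lost distal peaks were narrow. Their median width was 858 bp (quartiles 608 and 1203 bp), against 1188 bp (829 and 1746 bp) for the 7829 distal peaks kept in KO and 856 bp for the new distal KO peaks. The share of distal peaks that were lost went from 76.2% in the narrowest quartile (236 to 679 bp) to 38.7% in the widest (1414 bp and more). Lost and kept peaks covered nearly the same length, 11.34 and 11.31 Mb. At the edge of the rule, 25 lost peaks lay less than 50 bp from a KO H3K27ac peak (the nearest at 3 bp), and 19 kept peaks shared under 50 bp with one (the least being 1 bp). Most lost peaks were not isolated from remaining acetylation. The median gap to the nearest KO H3K27ac peak was 5098 bp, 67.9% had one within 10 kb and 97.7% within 100 kb.

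The compartment of the lost peaks was then examined, a measure that the rule did not use. The deposited Hi-C signal is a signed score per 100 kb bin, positive in A; control H3K27ac covered 6.94% of A bins and 0.437% of B bins. Of the 11239 lost peaks in a bin with a score, 91.2% (90.7 to 91.7) lay in bins that were A in both genotypes. Another 3.50% (3.17 to 3.85) lay in bins that were A in control and B in KO, 0.988% (0.821 to 1.19) in bins that went from B to A, and 4.29% (3.93 to 4.68) in bins that were B in both. For kept distal peaks these shares were 93.2%, 2.54% (2.21 to 2.92), 1.34% (1.11 to 1.62) and 2.89% (2.54 to 3.29). Over all 26496 bins, 5.95% went to B and 5.87% went to A. All bins are an unlike base, because most distal peaks stood in bins that were A in control. Of the bins that were A in control, 10.8% went to B. Among lost peaks in control B bins, 111 were in bins that went to A and 482 in bins that stayed B. For kept peaks these counts were 103 and 222, and for the bins themselves 1556 and 10309.

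Read the other way, the share of distal peaks lost differed with the compartment. It was 58.9% (58.2 to 59.6) of 17405 distal peaks in bins that were A in both genotypes, 66.8% (62.9 to 70.5) of 588 in bins going from A to B, 51.9% (45.2 to 58.5) of 214 in bins going from B to A, and 68.5% (64.9 to 71.8) of 704 in bins that were B in both. Across deciles of the bins with distal peaks, ordered by the change of signal, the share went from 65.6% (63.0 to 68.1) where the signal fell by 0.293 or more to 55.9% (53.5 to 58.2) where it was higher by 0.156 or more. Without chromosome 2 the outer deciles held 64.0% and 52.2%, and within bins that were A in both genotypes 61.8% (58.2 to 65.3) and 56.7% (54.2 to 59.1), whose intervals overlap. The bulk of the loss therefore stood in bins whose compartment sign did not change.

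**Figure D1:**
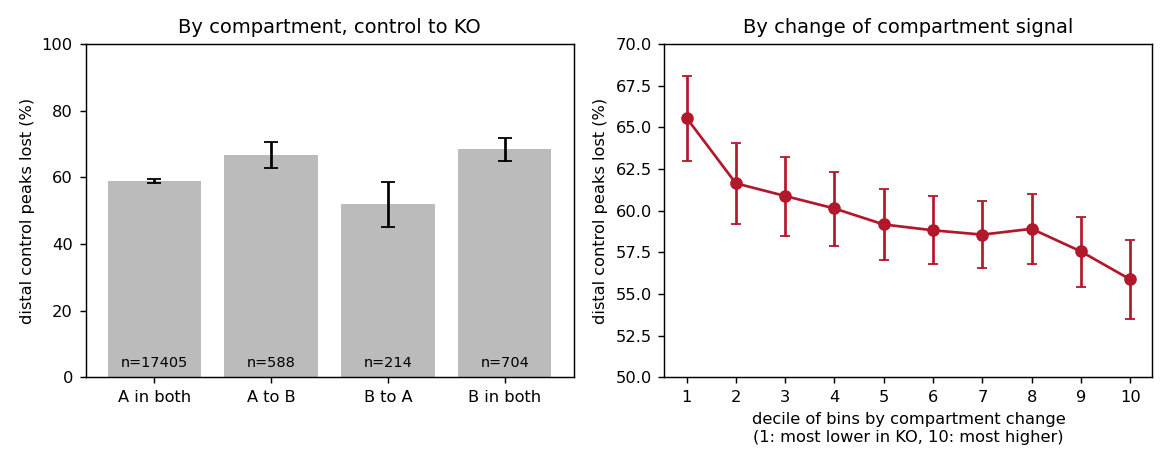
Share of distal control H3K27ac peaks that were lost in KO, by the compartment of the 100 kb bin in control and KO (left; n is the number of distal peaks) and by deciles of bins ordered by the change of compartment signal (right; the axis starts at 50). Error bars are 95% Wilson intervals; the share is 58.9% in bins that stayed A, and it runs from 65.6% in the first decile to 55.9% in the last.

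The change of signal was next read per bin. Limma on the replicate columns called 1586 of 5473 bins with a lost distal peak lower in KO (29.0%) and 746 higher (13.6%) at an adjusted p under 0.05, where 37.3% and 21.6% of all bins tested were called lower and higher (58.8% in either direction). Of the bins that were A in control, 32.9% were lower and 17.0% higher, and of those among them with a lost peak 26.9% and 13.0%. Among the 1703 bins that held only kept distal peaks, 29.2% (27.1 to 31.4) were lower and 18.1% (16.4 to 20.05) higher, against 29.0% (27.8 to 30.2) and 13.6% (12.8 to 14.6) with a lost peak. After each replicate column was divided by its SD, 2010 bins with a lost peak were lower (36.7%) and 497 higher (9.08%), where 38.5% and 20.3% of all bins were. The SD of the columns was 0.739 and 0.735 in KO and 0.697 and 0.698 in control. Without the first or the second KO library, 483 and 487 bins with a lost peak were higher. The share of lower bins differed with the number of peaks: of the 3020 bins with 1 lost peak 33.7% (32.1 to 35.5) were lower, and of the 44 bins with 10 or more 9.09% (3.59 to 21.2), with 10 of them higher. Bins dense in distal peaks had low shares whatever their loss. With at least 5 distal peaks, 16.1% (10.7 to 23.6) of bins were lower where all were lost, 16.2% (13.6 to 19.1) where 20% to 80% were and 14.9% (9.52 to 22.6) where 20% or less were.

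Per library, the mean signal over lost peaks was 0.725 and 0.728 in control and 0.694 and 0.688 in KO. Over kept peaks it was 0.747 and 0.750 in control and 0.736 and 0.730 in KO. The difference of lost from kept peaks was -0.0219 ± 3.1e-05 (SD, n = 2) in control and -0.0417 ± 0.00019 (SD, n = 2) in KO, a shift of -0.0197. The genotypes did not overlap, but 2 libraries against 2 cannot go below p = 0.333 in the exact two-sided permutation test, which is the value obtained. The shift is small beside the SD of the change over all bins, 0.332.

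Single bins illustrate both cases. The bin at chr11:7600001-7700000 held 9 lost and 2 kept distal peaks, and its signal was 0.289 and 0.180 in control and -0.175 and -0.046 in KO libraries, a change of -0.345 (SE 0.055; limma adjusted p = 0.00034). At chr19:33100001-33200000, with 8 lost and 5 kept peaks, the signal was 0.196 and 0.199 in control and -0.416 and -0.406 in KO, a change of -0.609 (SE 0.040; limma adjusted p = 6.1e-07). In each of these bins every KO library was on the B side and every control library on the A side. The bin with most lost peaks among those not called, chr9:119000001-119100000, held 20 lost and 0 kept distal peaks with a signal of 0.316 and 0.263 in control and 0.296 and 0.260 in KO (limma adjusted p = 0.84). The next, chr15:71500001-71600000, held 16 lost and 2 kept peaks (limma adjusted p = 0.16). At these 2 bins nearly all distal acetylation was lost in a bin that kept its A sign, and a change of signal was not detected.

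Repressive marks were rarely gained at lost peaks. In KO, 98.5% (98.2 to 98.7) of the lost distal peaks carried neither an H3K9me3 nor an H3K27me3 peak. H3K9me3 was gained, meaning present in KO and absent in control, at 113 lost peaks, 0.986% (0.821 to 1.18), against 5 kept peaks, 0.0639% (0.0273 to 0.149). The gains were mostly at narrow peaks, at 1.58% of lost peaks in the narrowest quartile of width and 0.215% in the widest, and at 0.195% (4 of 2051) of those in the wider 50% of all control H3K27ac peaks. H3K27me3 was gained at 13 lost peaks, 0.113% (0.0663 to 0.194), and at 2 kept peaks, 0.0256% (0.00701 to 0.0931), whose intervals overlap. Both marks were gained at 2 lost peaks. More lost peaks shed H3K9me3 than gained it: 5.66% (5.26 to 6.10) touched H3K9me3 in control and 1.45% (1.25 to 1.68) in KO. Kept distal peaks had more H3K9me3 in control, 9.67% (9.03 to 10.3), and less in KO, 0.166% (0.0971 to 0.284). Within each quartile of peak width the same order held for lost and kept peaks in both genotypes, with 5.16% to 6.34% of lost and 7.74% to 10.9% of kept peaks under control H3K9me3.

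The gains of H3K9me3 stood in the B compartment. Of the 111 such peaks in a scored bin, 81 lay in bins that were B in both genotypes, 29 in bins going from A to B, 1 in a bin that was A in both and 0 in bins going from B to A. As a share of the lost peaks of each class, H3K9me3 was gained at 16.8% (13.7 to 20.4) of 482 in bins that stayed B, at 7.38% (5.19 to 10.4) of 393 in bins going from A to B, and at 0.00975% (0.00172 to 0.0552) of 10253 in bins that stayed A. Kept peaks in bins that stayed B gained it at 2.25% (0.966 to 5.16) of 222. KO H3K9me3 covered 56.2% of the length of all bins that stayed B, 11.8% of those going from A to B, 0.965% of those that stayed A and 2.53% of those going from B to A. In control these covers were 15.3%, 12.5%, 9.58% and 17.5%, so cover rose in bins that stayed B and did not rise in those going from A to B. Of the 13 H3K27me3 gains, 7 were in bins that stayed A, at 0.0683% (0.0331 to 0.141) of the lost peaks there. Another 4 were in bins that stayed B, at 0.83% (0.323 to 2.11) of the lost peaks there.

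Where H3K9me3 was gained it mostly covered the whole peak. Of the 113 peaks, 103 lay wholly under KO H3K9me3, and the KO H3K9me3 peak over them had a median width of 25.3 kb (0.514 to 382 kb). They were spread over 20 chromosomes and 98 bins, of which 85 were lower and 2 higher in compartment signal by limma, where 37.3% and 21.6% of all bins were. A kept distal peak also stood in 1 of these bins. Of all bins, 5473 held a lost peak and 4090 a kept one, 1703 of the latter without a lost peak. Distal peaks were few in bins that stayed B, with 482 lost and 222 kept. The longest stretch of lost acetylation under a gained H3K9me3 domain was the 2739 bp peak at chr8:50967963-50970701, inside a KO H3K9me3 peak of 105 kb in a bin at -0.850 and -0.928 in control and -1.132 and -1.055 in KO. The third longest, 1576 bp at chr12:115437394-115438969, lay in a KO H3K9me3 peak of 368 kb, in a bin whose signal went from 0.232 and 0.278 in control to -1.030 and -1.057 in KO libraries. In both bins no distal peak was kept. The widest cover by gained H3K27me3 was 892 bp of the peak at chr19:53798071-53799044, in a bin that went from -1.343 and -1.316 to 0.084 and 0.134, followed by 685 bp of the peak at chr7:108022413-108023608.

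The surroundings of lost peaks were depleted of H3K9me3 in KO, as at kept peaks, but less far. Within 0.5 kb of the centre, control H3K9me3 covered 3.87% of the bases at lost and 6.43% at kept peaks, and KO H3K9me3 covered 1.37% and 0.101%. At 90 to 100 kb these covers were 8.77% and 8.26% in control and 2.57% and 1.37% in KO. A KO H3K9me3 peak lay within 50 kb of 8.28% (7.79 to 8.80) of lost and 6.46% (5.94 to 7.03) of kept peaks. H3K27me3 within 50 kb was found for 24.9% (24.1 to 25.7) of lost peaks in control and 28.8% (28.0 to 29.6) in KO, and for 23.4% (22.5 to 24.3) and 25.5% (24.6 to 26.5) of kept peaks. It spared the peaks themselves in both genotypes, covering under 0.1% of the bases within 0.5 kb of the centre.

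**Figure D2:**
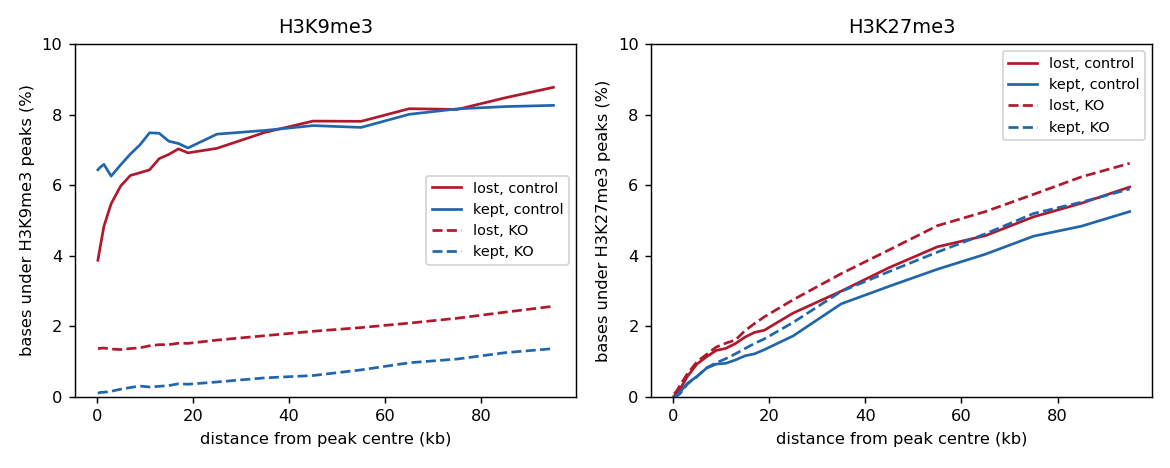
Percentage of bases under H3K9me3 (left) and H3K27me3 (right) peaks by distance from the centre of lost and kept distal H3K27ac peaks, both sides together, in control (solid) and KO (dashed). Over lost peaks, H3K9me3 cover within 0.5 kb is 3.87% in control and 1.37% in KO, and its KO lines for lost and kept peaks are apart over the whole 100 kb.

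CTCF, the factor that marks many loop anchors and TAD edges, sat at few lost peaks. A control CTCF peak overlapped 2.61% (2.33 to 2.92) of lost and 3.998% (3.59 to 4.46) of kept distal peaks. In KO these shares were 4.39% (4.03 to 4.78) and 6.77% (6.23 to 7.35). Only 0.410% of lost peaks had a control CTCF peak without a KO one, while 2.19% had a CTCF peak in KO only. The same excess stood at kept peaks, with 0.524% and 3.295%, and at new distal KO peaks, with 0.431% and 2.12%. Within 20 kb of a control TAD edge lay 15.4% (14.7 to 16.0) of lost and 14.9% (14.1 to 15.7) of kept peaks, with overlapping intervals.

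Loss was clustered along the chromosomes. After a lost distal peak the next distal peak was also lost in 65.5% (64.6 to 66.3) of 11447 cases, and after a kept one in 50.5% (49.4 to 51.6) of 7818. The shares differed with the gap between the peaks. With under 2 kb between the peaks the shares were 68.8% (66.6 to 71.0) and 36.1% (33.7 to 38.6), at 25 to 50 kb they were 63.4% (60.8 to 65.9) and 56.7% (53.4 to 59.9), and beyond 500 kb they were 62.9% (59.4 to 66.2) and 59.8% (55.6 to 64.0), with overlapping intervals. Whether close neighbours are pieces of 1 acetylated region was not tested. Without chromosome 2 the overall shares were 63.8% and 49.99%. Dense groups were not lost more often than single peaks. With distal peaks joined across gaps of up to 10 kb, 62.0% (61.0 to 63.1) of the 8199 that stood alone were lost, against 52.3% (49.5 to 55.0) of the 1257 in groups of 10 or more. Of those 95 groups, 4 were lost whole and 4 kept whole.

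**Figure D3:**
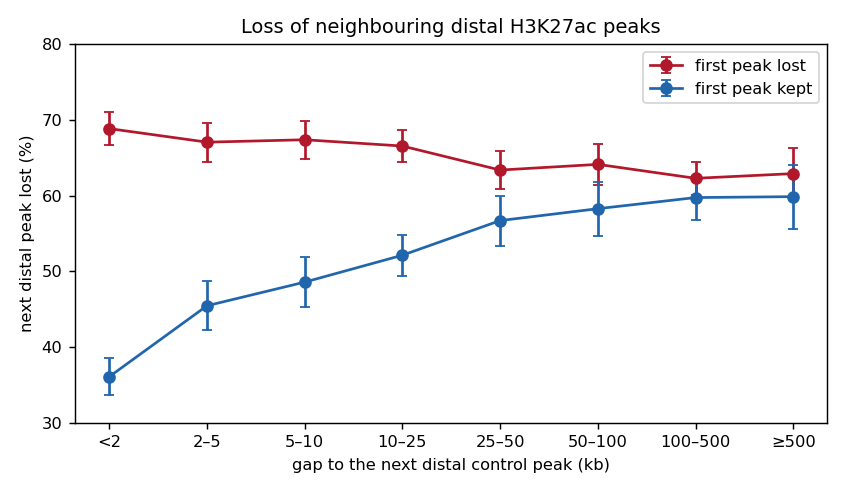
Percentage of distal control H3K27ac peaks that were lost, by the gap from the distal peak before them, where that one was itself lost (red) or kept (blue); bars are 95% Wilson intervals and the axis starts at 30. The lines stand at 68.8% and 36.1% for gaps under 2 kb and meet within their intervals beyond 500 kb.

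Successive lost peaks were also counted as runs, whose length grows with the overall share lost. The lost peaks fell into 3964 runs of successive distal peaks, of which 112 held 10 or more (1517 peaks, 13.2% of all lost peaks), whereas 29 of 3962 runs of kept peaks did (392 peaks, 5.01%). Chromosome 2 held 30 of the 112 long runs of loss and 2 of the 29 long runs of kept peaks. The longest run held 56 peaks at chr2:118752420-122381633, the third longest 39 peaks at chr2:239298550-242249853 and the fourth 26 peaks at chr2:224648883-225780925, while the longest run of kept peaks held 20.

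The second longest run was the densest of the 6 longest. It packed 43 lost distal peaks into 207.6 kb at chr9:118941733-119149298, and the 47 control H3K27ac peaks there, promoter-type ones included, faced 2 in KO. Of 6 control H3K4me3 peaks in the run, 3 had no KO counterpart. H3K9me3 cover was 12.5% in control and 0.984% in KO, H3K27me3 cover was 0% in both genotypes, and the mean compartment signal was 0.291 and 0.315 in control and 0.334 and 0.327 in KO, with 0 of 3 bins called by limma. Nearly all acetylation of the run was lost, while both repressive marks together covered little of it in KO.

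The run on chromosome 7 took another course. At chr7:107724332-108071852, 22 distal peaks were lost over 347.5 kb and 40 control H3K27ac peaks were followed by 5 in KO. Of 18 promoter-type H3K27ac peaks 12 were lost, and of 24 control H3K4me3 peaks 11 had no KO peak. H3K27me3 cover went from 0% to 9.29%, H3K9me3 cover from 13.5% to 0%, and the signal of all 4 bins was lower by limma (means of 0.651 and 0.592 in control and 0.377 and 0.413 in KO) while staying on the A side. The lost peak at chr7:108022413-108023608, named above for the H3K27me3 gained over part of it, is a member of this run.

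In the fifth run, 23 peaks over 5739 kb at chr3:19937409-25676817, H3K9me3 cover went from 7.47% to 45.4% and H3K27me3 cover from 13.2% to 5.88%. The signal there was -0.207 and -0.204 in control and -0.464 and -0.457 in KO, with 43 of 58 bins lower. New acetylation appeared in the same span, and all H3K27ac peaks numbered 78 in control and 81 in KO. In the 3 runs on chromosome 2, by contrast, H3K9me3 cover fell in each, from between 11.3% and 23.8% to between 0.214% and 1.13%. Their mean signal was higher in KO by 0.009 to 0.079. The smallest of these changes was that of the longest run, which was mixed, with 7 of 37 bins lower and 9 higher by limma. In the runs of 39 and 26 peaks 0 bins were lower, and 11 of 31 and 3 of 12 were higher.

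**Figure D4:**
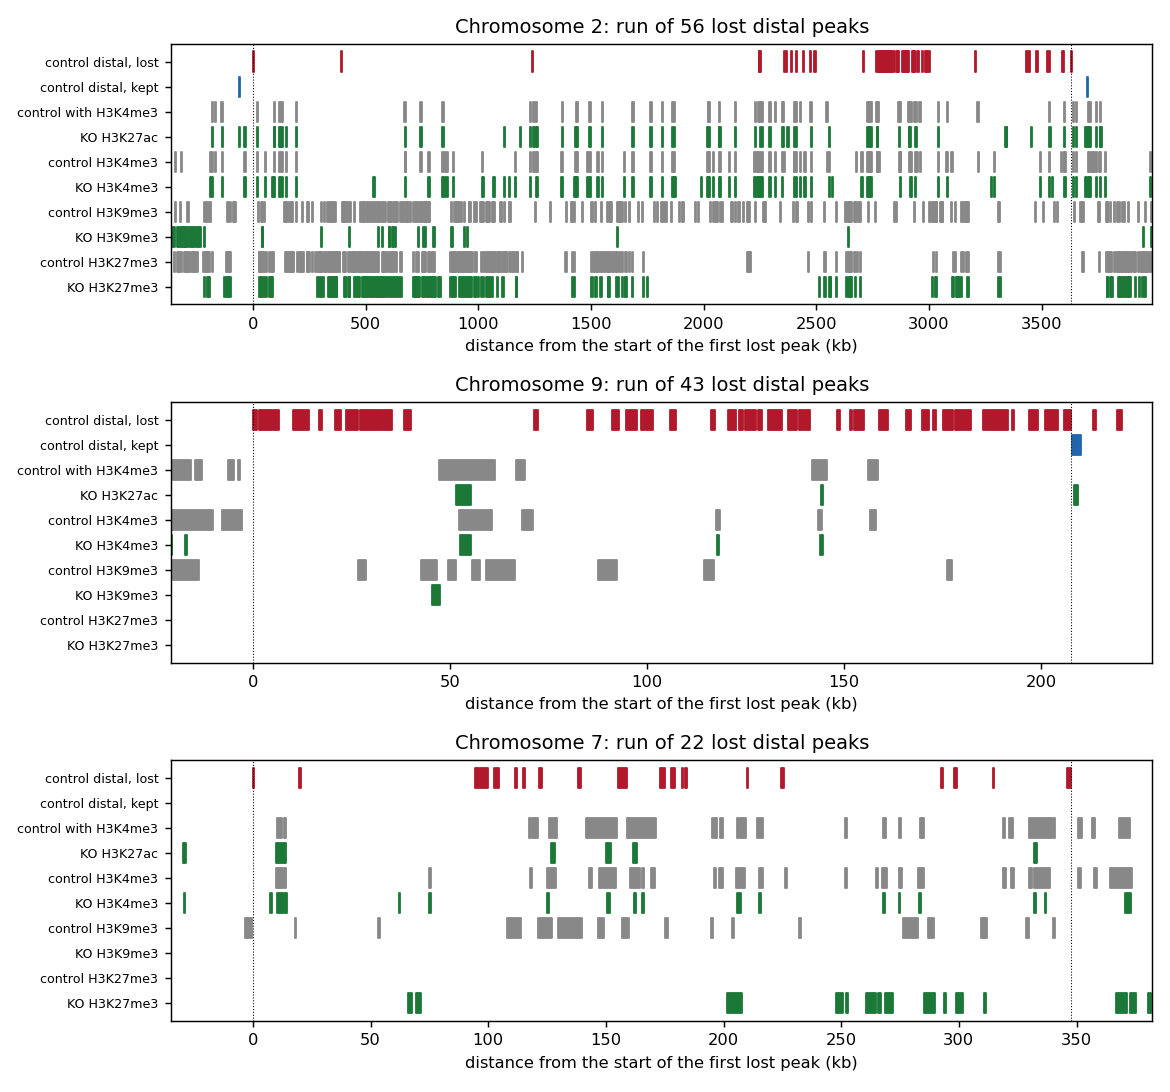
Peaks in and around 3 runs of lost distal H3K27ac peaks, by distance from the start of the run; dotted lines mark the ends of each run. On chromosome 9 repressive marks cover little of the run in KO (H3K9me3 0.984%). On chromosome 7 H3K27me3 peaks appear in KO within the run, also over part of a lost peak. Very short peaks are drawn at a minimum width.

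The share lost was also described per TAD. Of 1325 control TADs with at least 5 distal peaks, 309 (23.3%) had lost 80% or more of them and 79 had lost all, whereas 71 (5.36%) had lost 20% or less and 14 none. The overall share of 59.4% by itself places more TADs at the upper than at the lower end, so these counts are no measure of clustering. The 309 TADs held 2421 lost peaks, and 66 of them were on chromosome 2. Promoter-type H3K27ac was lost more often there too, at 15.8% (14.6 to 17.1) of 3256 such peaks, against 5.00% (3.77 to 6.61) of 920 in the 71 TADs with least loss. H3K4me3 was missing in KO for 18.7% (17.5 to 19.9) of control peaks in the first set and 11.7% (9.92 to 13.7) in the second, and CTCF for 29.1% (26.7 to 31.7) and 15.7% (11.7 to 20.8). Over all 1325 TADs the shares were 9.94% for promoter-type H3K27ac, 14.3% for H3K4me3 and 24.1% for CTCF. On the whole of chromosome 2, inside and outside such TADs, they were 15.3%, 19.6% and 63.7%. CTCF loss was nearly as high on chromosomes 8 (61.9%) and 5 (58.8%), where 56.2% and 59.4% of distal peaks were lost. It ranged down to 4.76% on chromosome 22. The part of chromosome 2 in the contrast was not tested. New distal peaks were called in 202 of the 309 TADs, 447 in all.

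The TAD with most losses, chr9:118920001-119340000, contains the chromosome 9 run and kept 1 of 49 distal peaks. The next were chr15:71200001-71740000 with 41 of 50 lost, chr2:121440001-121840000 with all 35 lost, chr9:116440001-117100000 with 29 of 31 lost and chr8:32400001-33340000 with 28 of 31 lost. KO H3K9me3 covered between 0% and 1.44% of these 5 TADs. The compartment signal stayed positive in each, and 5 of the 10 bins of the chromosome 8 TAD were lower by limma, with H3K27me3 cover going from 4.33% to 9.90%.

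Chromosome 2 stood apart. It had the highest share of distal peaks lost, 71.9% (69.8 to 73.8) of 1953, followed by chromosome 9 with 63.7% (60.7 to 66.6), chromosome X with 61.6% (55.6 to 67.3) and chromosome 11 with 61.0% (57.8 to 64.1). The lowest shares were 49.95% (46.9 to 53.0) of 1051 on chromosome 12, 51.6% (45.4 to 57.8) on chromosome 18, 52.6% (43.5 to 61.6) on chromosome 21 and 53.8% (50.3 to 57.3) on chromosome 19. The interval of chromosome 2 overlapped that of no other chromosome, whereas that of chromosome 12 overlapped several. Chromosome 2 held 1404 lost peaks, 12.3% (11.7 to 12.9) of all, and 7.01% (6.47 to 7.60) of kept peaks. Its new distal KO peaks numbered 415, or 0.296 per lost peak, and on chromosome 12 there were 712 new and 525 lost peaks, or 1.36.

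The excess on chromosome 2 was spread along its length, but unevenly. DNA copy number was not analysed here, and its part in the values of whole chromosomes, and in the runs and TADs on chromosome 2, was not tested. All 13 stretches of 20 Mb lay above the share of all distal peaks, from 60.8% (55.3 to 66.0) at chr2:20000001-40000000 to 94.9% (83.1 to 98.6) of the 39 peaks beyond position 240000001. The intervals of that lowest stretch, chr2:1-20000000 (58.6 to 73.1), chr2:40000001-60000000 (54.3 to 68.0) and chr2:100000001-120000000 (59.1 to 74.3) included the share of all distal peaks, 59.4%. All 7 stretches of chromosome 12 lay below it, between 41.1% and 55.6%. Over the 152 stretches of the genome with at least 20 distal peaks the share ranged from 40% to 94.9%, with a median of 58.1%. Promoter-type H3K27ac was also lost most on chromosome 2 (15.3%) and least on chromosome 12 (6.96%), and H3K4me3 peaks were missing in KO at 19.6% and 10.8%.

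RNA moved the same way on these chromosomes. On chromosome 2 the 1049 tested genes stood at a median of -0.54, and on chromosome 12 the 854 tested genes at 0.37, as log2 fold changes. Across the 23 chromosomes the share of distal peaks lost and the median log2 fold change correlated at Pearson r = -0.77 and Spearman rho = -0.47. Without chromosomes 2 and 12, but with chromosome 19, these values were -0.35 and -0.30. Chromosomes are few and share the same libraries, so this is a description. The lost peaks of chromosome 2 were not richer in gained H3K9me3 (0.570%), and the median change of compartment signal in their bins was 0.00571.

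**Figure D5:**
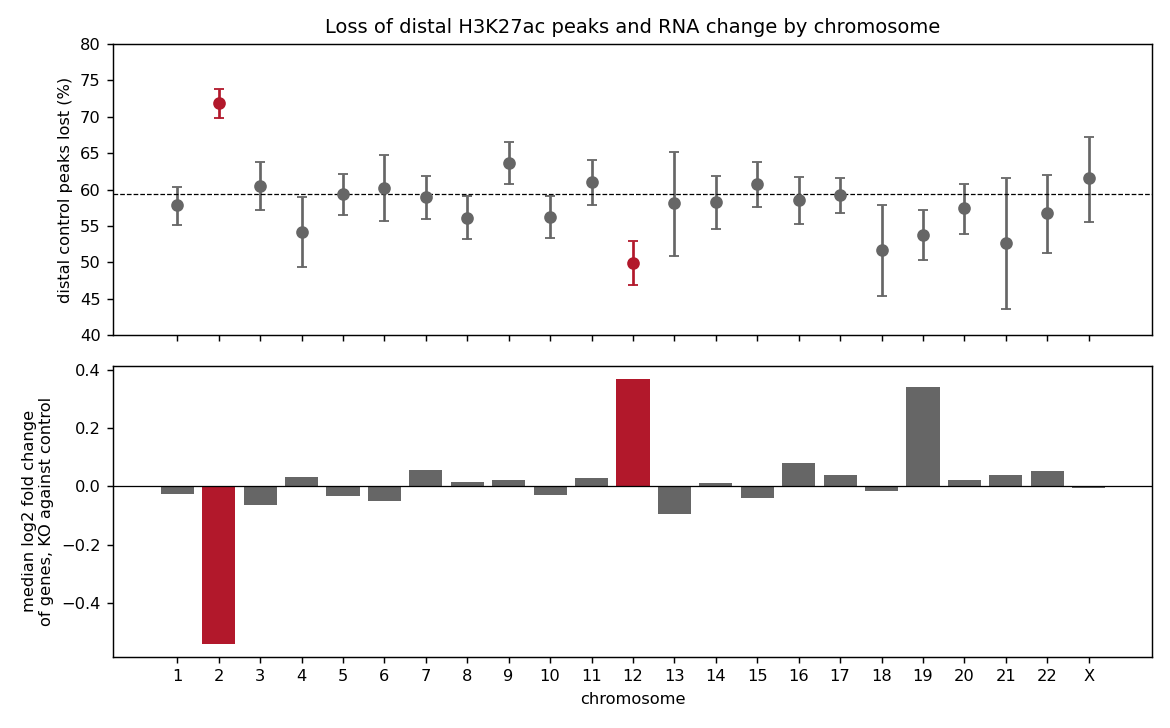
Share of distal control H3K27ac peaks lost in KO by chromosome with 95% Wilson intervals (top; dashed line, all chromosomes together; the axis starts at 40), and the median log2 fold change of tested genes by chromosome (bottom). Chromosomes 2 and 12, in red, stand at 71.9% and 49.95% lost and at -0.54 and 0.37.

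RNA of the proteins that write, read and bind at enhancers was measured over a list of 99 genes, 93 of them tested. Of these, 44 were higher and 24 lower in KO at an edgeR adjusted p under 0.05, where 32.8% and 30% of all 17767 genes tested were called higher and lower (62.8% in either direction). The median log2 fold change of the list was 0.14, and that of all genes 0.004. The writers themselves were not reduced. EP300, at 80.2, 80.7 and 74.4 CPM in control and 93.4, 86.5 and 78.7 CPM in KO, rose slightly with overlapping groups (log2 fold change 0.14, SE 0.055; edgeR adjusted p = 0.029), and CREBBP rose from 53.9 ± 1.95 to 64.2 ± 2.15 CPM (SD, n = 3; edgeR adjusted p = 6.5e-05). All 4 acetyltransferases tested were higher. KMT2C and KMT2D, which place the enhancer mark H3K4me1, had log2 fold changes of 0.15 and 0.10 (edgeR adjusted p = 0.019 and 0.13). Of 10 deacetylases and corepressors, 5 were lower and 2 higher.

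Among the DNA-binding factors, lineage factors were higher in 11 of 17 tested and lower in 4. HNF4G, a nuclear receptor of endodermal epithelia, rose from 0.977, 0.773 and 0.687 CPM to 16.7, 16.8 and 16.5 CPM (log2 fold change 4.36, SE 0.13; edgeR adjusted p = 2.7e-21). FOXA1, a pioneer factor that opens enhancers, rose from 16.3, 17.3 and 16.1 CPM to 71.4, 75.3 and 75.2 CPM (log2 fold change 2.16, SE 0.057; edgeR adjusted p = 1.6e-22). The other largest increases were those of SNAI2 (3.16), NFIX (2.06), SOX2 (1.88), EHF (1.73), CEBPD (1.46) and GATA3 (1.32), as log2 fold changes, and in none of them did the genotypes overlap. Epithelial marker genes moved with the genotype as well: all 5 listed were higher, and their summed level was 2995 to 3272 CPM in control and 9210 to 9943 CPM in KO. Most of this sum came from KRT8 and KRT18, whose genes are on chromosome 12. EPCAM, KRT19 and CDH1, on chromosomes 2, 17 and 16, rose by 1.41, 2.49 and 0.95 on the log2 scale. Of the 2 endothelial genes listed, CDH5 rose from 0.289 ± 0.0835 to 4.53 ± 0.67 CPM (SD, n = 3) and PECAM1 had no value. Summed fibroblast genes stood at 4.67 to 4.76 CPM in control and 4.71 to 4.90 CPM in KO, with COL1A2 at 0. Within that sum PDGFRA was lower in KO (log2 fold change -3.19; edgeR adjusted p = 2.2e-09) and COL3A1 and COL1A1 were higher (1.42 and 0.30; edgeR adjusted p = 0.00061 and 0.041). Summed leukocyte genes stood at 5.52 to 5.85 CPM in control and 3.97 to 5.30 CPM in KO, nearly all of it from CD14. Their part in these changes was not tested.

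Factors that fell were also found. GATA2 fell from 3.23, 3.37 and 3.50 CPM to 1.35, 1.34 and 1.07 CPM (log2 fold change -1.40, SE 0.16; edgeR adjusted p = 1.5e-08). GRHL1, an epithelial factor whose gene is on chromosome 2, fell from 1.59 ± 0.12 to 0.74 ± 0.014 CPM (SD, n = 3). AP-1 factors, dimers of FOS and JUN proteins that bind many distal enhancers, were listed together with related bZIP proteins such as BACH1, MAFK and ATF3. Of the 11 tested in this group, 5 were higher and 4 lower. The FOS-related FOSL2, whose gene is on chromosome 2, fell from 121, 124 and 127 CPM to 79.3, 82.4 and 77.5 CPM (log2 fold change -0.63, SE 0.045; edgeR adjusted p = 8.2e-13). FOSL1 fell by 0.77, BATF3 by 0.81 and JUN by 0.31 on the log2 scale, whereas JUND rose by 1.12 and FOS by 0.64. JUNB did not pass the test (log2 fold change -0.04, edgeR adjusted p = 0.68). ETS1, HNF4A and ZEB1 fell by 0.79, 0.55 and 0.49. Which of the lost peaks these factors bind was not analysed here.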

How the data were processed

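Samples were grouped by their titles; those of KO H3K4me3 have a mark label with a digit missing. The authors deposited raw gene counts, a signed compartment score per bin and replicate, and peak and TAD positions with no score (other values), 1 list per mark and genotype. Chromatin was cut with MNase for histone marks and sonicated for CTCF, per the labels' protocols. STAR 2.6.1c, Bowtie2 2.2.3, MACS2, Picard, SAMtools 1.5, edgeR 3.30.0 and build hg19 are named in the submitters' processing notes, without roles; the caller's threshold, the pooling of libraries and the method behind the score are not given in the sources used here.

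The members and lists were chosen with earlier results of these data known. Overlaps were computed in Python 3.11.15 (numpy 2.4.6, pandas 2.3.3, scipy 1.17.1). A peak took the compartment of the bin of its midpoint. Bins with a value in every column were tested with limma 3.58.1 (robust) and genes with edgeR 4.0.16 (TMM, filterByExpr, quasi-likelihood) in R 4.3.3, with Benjamini-Hochberg adjustment at 0.05 over all bins or genes. Both fits were tested on simulated data. Nothing in the labels says that libraries came from separate cultures, so p-values measure only the spread between these samples. Of 62486 gene IDs, 58642 had a symbol; chromosomes of genes came from RefSeq on GRCh38.p14.

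Named regions were the 6 longest runs and 5 TADs, the bins with most lost peaks (6 lower and going from A to B, 3 not called), the 5 peaks per mark with most gained bases and the 4 outer chromosomes each way; only some are printed. Named genes were the 8 largest called changes each way of the enhancer list at a mean of at least 1 CPM, with EP300, CREBBP, KMT2C and KMT2D (a further gene of the rule is not reported here); FOS, JUN, JUNB and JUND were chosen after their values were seen. No per-sample column went unmapped (0 columns).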

Additional observations from a re-analysis of the deposited data

How the results depend on the processing

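Of 111 values under alternatives, 92 stayed within their limits, 19 moved and 0 reversed; leaving out chromosome 2 and reading the midpoint of the peak only were chosen after seeing the data. The share of distal peaks lost was 60.76% with no H3K4me3 within 1 kb, 50.83% with no KO H3K27ac within 1 kb, 61.16% with peaks merged within 1 kb, 39.36% in the wider 50% of peaks and 58.0% without chromosome 2. The next distal peak was lost in 61.01% with no KO H3K27ac within 1 kb, 47.16% in the wider 50% and 63.8% without chromosome 2. In the wider 50%, H3K9me3 was gained at 0.195%, H3K27me3 at 0.0% and control CTCF lay at 2.974% of lost peaks. With 5 kb added on each side, H3K27me3 was gained at 1.143% and CTCF found at 12.92%; control CTCF covered 50% of the peak at 0.1222% and its midpoint at 0.5585% of lost peaks. The causes of the other moves were not tested.

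With columns divided by their SD, 497 bins with a lost peak were higher. With 1 Hi-C library left out at a time, there were 483 to 786 higher bins, with 483 without KO replicate 1 and 487 without KO replicate 2, and 0.8186% to 1.05% of lost peaks in bins going from B to A. Deviations of same-numbered libraries correlated at -0.0018 in Hi-C and at 0.2114, 0.1338 and 0.0709 in RNA-seq. Pairing by replicate number was thus not seen in Hi-C, and weak pairing in RNA-seq was not excluded. With the replicate block, 1638 bins with a lost peak were lower and 795 higher, and 47 enhancer factor genes were higher and 25 lower. Peak lists without replicates or depth limit every share to counting error.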
